A study of Drosophila melanogaster with 33 samples.

Results

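Lola-I peaks lay inside introns at 329 places that both replicate peak lists held, in chromatin of wild-type *Drosophila melanogaster* embryos. These shared intronic peaks are the replicate 1 peaks that a replicate 2 peak overlapped by at least 1 bp and whose summit, the position of highest signal, lay inside a gene body, in no exon and more than 200 bp from every annotated transcription start site (TSS). They made up 21.5% of the 1531 shared peaks, beside 793 at promoters, 302 between genes and 107 in exons. The peaks were thus selected on the measured signal of the same libraries that supply their enrichment values, and those values are given as a description without a test. The study used ChIP-seq, the sequencing of DNA pulled down with an antibody against a chromatin protein, in 33 samples of 12 groups. Used here were both libraries of 1 group, made from whole OregonR embryos of wild-type genotype aged 14 to 17 h with a custom rabbit polyclonal antibody against Lola-I. The other 31 samples, with other targets, genotypes and ages, were not analysed here. Each library came from a pool of whole embryos, so the cell types that carried a peak cannot be told apart. Sequencing depth is unknown, since a peak list carries no reads.

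The gene *lola* (longitudinals lacking) makes many proteins by alternative splicing. They share a BTB domain, through which such proteins pair, and most end in zinc fingers of their own that read DNA. Lola-I is the isoform profiled here. Introns of fly developmental genes are long and often hold enhancers, and they can also lie next to alternative promoters of the same gene. An intronic peak therefore need not act on the gene that holds it, and the gene that holds it is called its host below only by position.

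A selection of the sequences of best-ranked peaks and of hosts with the most peaks is shown here because the same 6 letters recur near many of the summits. Most lines were picked because they hold the letters, so their number says nothing of how frequent the letters are. Each line is the 61 bp centred on a replicate 1 summit, taken from the plus strand of the RefSeq Release 6 genome (dm6), 5′ to 3′. Capitals mark AAAGCT or its reverse complement AGCTTT. *Eip74EF*, *Eip75B* and *ftz-f1* encode transcription factors of the response to the steroid hormone ecdysone. *Pdp1* encodes a bZIP transcription factor of the circadian clock, *dnc* a cyclic AMP phosphodiesterase, and *shakB* a gap junction protein of the innexin family. *ppk8* belongs to the pickpocket family of sodium channels. *COX7AL2*, a host of 4 peaks with no copy of the letters within 100 bp of any summit, is shown for contrast, as are *CG15531* and the mucin-related gene *Mur2B*, 2 of the 10 best-ranked peaks without the letters in this stretch.
*Eip74EF*, chr3L:17596975-17597035: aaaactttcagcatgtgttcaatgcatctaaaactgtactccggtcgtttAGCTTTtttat
*Eip75B*, chr3L:18019788-18019848: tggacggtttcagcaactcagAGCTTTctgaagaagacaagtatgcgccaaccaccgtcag
*Eip75B*, chr3L:17962381-17962441: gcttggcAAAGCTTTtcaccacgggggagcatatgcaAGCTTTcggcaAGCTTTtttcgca
*ftz-f1*, chr3L:18791358-18791418: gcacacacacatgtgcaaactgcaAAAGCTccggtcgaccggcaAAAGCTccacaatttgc
*ppk8*, chrX:3570412-3570472: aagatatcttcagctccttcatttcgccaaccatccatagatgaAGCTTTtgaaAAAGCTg
*Pdp1*, chr3L:7837230-7837290: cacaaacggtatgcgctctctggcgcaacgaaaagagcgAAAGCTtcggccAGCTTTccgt
*dnc*, chrX:3285466-3285526: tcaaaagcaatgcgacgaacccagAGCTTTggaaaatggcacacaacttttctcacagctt
*prage*, chrX:1821194-1821254: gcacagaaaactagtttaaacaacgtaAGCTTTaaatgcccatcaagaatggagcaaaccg
*shakB*, chrX:20792241-20792301: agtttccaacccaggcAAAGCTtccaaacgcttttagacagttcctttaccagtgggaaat
*CG15531*, chr3R:30195654-30195714: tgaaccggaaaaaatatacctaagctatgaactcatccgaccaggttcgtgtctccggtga
*Mur2B*, chrX:1560209-1560269: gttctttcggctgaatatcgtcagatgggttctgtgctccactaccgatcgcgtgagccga
*COX7AL2*, chr2L:2193590-2193650: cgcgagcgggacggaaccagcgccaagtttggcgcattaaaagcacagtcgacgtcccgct
*COX7AL2*, chr2L:2196001-2196061: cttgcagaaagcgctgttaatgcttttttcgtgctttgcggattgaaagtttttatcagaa

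Over all 44 stretches of this length read at such peaks, 23 held a match and 21 did not. The stretches without a match included 3 of the 4 in *Hr4* and 2 of the 4 in *ftz-f1*. The *Eip75B* summit in the second of its lines has 4 overlapping or separate matches, because AAAGCTTT reads as a match on both strands, whereas the summit above it has 1. The *ftz-f1* stretch holds AAAGCT followed by CC in both of its copies. All counts below use a wider window, 100 bp to either side of the summit, and a match in it describes the letters and not contact by the protein.

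The enrichment of the intronic peaks spanned a wide range in each replicate. The deposited fold enrichment, which is the authors' own value for each peak, had a lowest value of 1.90, a median of 4.79 and a highest of 51.2 in replicate 1. In replicate 2 the lowest value was 3.52, the median 37.3 and the highest 423. The 2 libraries were thus on different scales, and only ranks within a list, by the deposited −log10 p-value, were used to order peaks. The medians lay close to those of shared promoter peaks, at 4.82 and 36.2, and below those of shared intergenic peaks, at 5.71 and 49.6. Of the intronic peaks, 200 (60.8%) were matched by a replicate 2 peak within the best-ranked 10% of that list. The shares were 61.4% for shared promoter peaks and 67.5% for shared intergenic peaks. For comparison, the 2530 intronic peaks of replicate 2 alone had a median fold enrichment of 4.36.

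**Figure D1:**
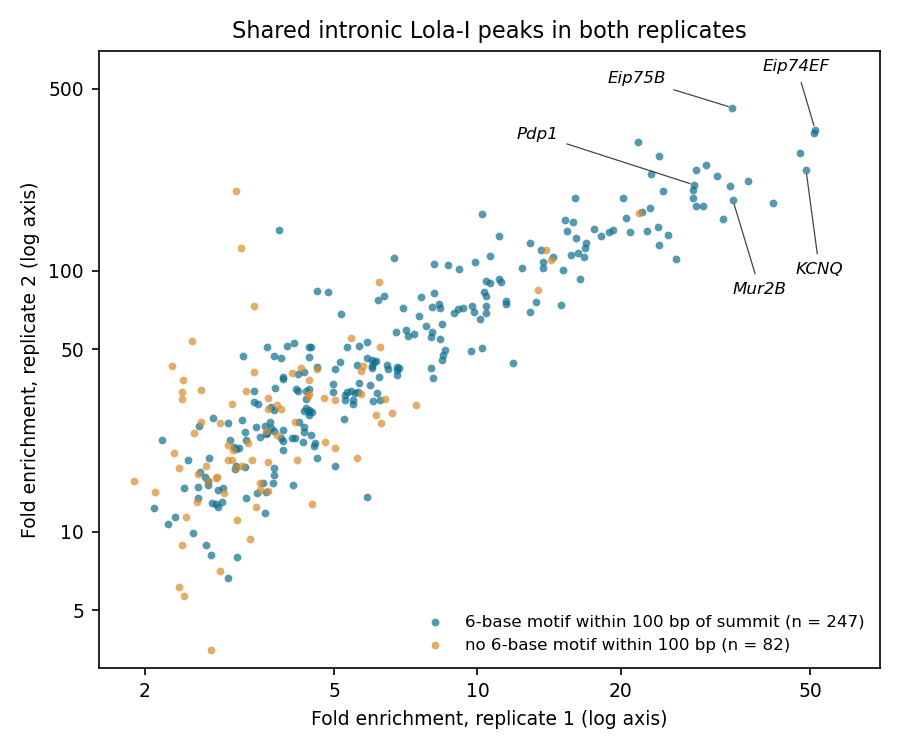
Fold enrichment of each shared intronic peak in replicate 1 (x axis, log scale) against that of its overlapping replicate 2 peak (y axis, log scale), 1 point per peak, coloured by whether the 6-base motif lies within 100 bp of the summit. Points of the 247 peaks with the motif fill the upper right, where *Eip74EF* stands at 51.2 and 349, and the 82 peaks without it lie mostly at the lower left.

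Replicate 2 recovered nearly every intronic peak of the shorter list. Of 333 intronic peaks of replicate 1, 329 (98.8%, 95% Wilson interval 97.0 to 99.5) were overlapped in replicate 2. The share was the same at promoters, with 793 of 803, and lower in exons, with 107 of 302 (35.4%). The 4 intronic peaks without a partner lay in *Glut1*, *Antp*, *sona* and *spir*, at fold enrichments of 2.14 to 2.98. Peaks were narrow, with a median width of 279 bp and a range of 160 to 897 bp. The summits of the replicates lay a median of 17 bp apart, and 251 of the 329 pairs were within 50 bp. By the replicate 2 summit, 310 peaks stayed intronic, 13 were promoter peaks and 6 fell in an exon.

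The long replicate 2 peaks can cover more than 1 peak of replicate 1. The 329 peaks rested on 319 distinct replicate 2 peaks, and 19 of them shared 9 such peaks. The most extreme case was *ken*, a BTB zinc-finger repressor gene, where 3 intronic peaks at fold enrichments of 5.31, 6.25 and 4.47 all met the same replicate 2 peak at 51.1. A replicate 2 fold can thus belong in part to another summit. In *rdx*, a host of 3 peaks, a peak at 3.11 in replicate 1 met a replicate 2 peak at 203 whose summit lay 413 bp away, and in *AGO1* a peak at 3.18 met one at 122 whose summit lay 1269 bp away.

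The best-ranked intronic peak lay in *KCNQ*, a voltage-gated potassium channel gene on 2R. Its fold was 49.0 in replicate 1, at rank 19, and 244 in replicate 2, at rank 18. Its summit was in intron 1 of 16, 1197 bp from the nearest TSS. The *Eip74EF* peak, in intron 5 of 7 of a gene for an ETS-domain factor induced early by ecdysone, had the highest replicate 1 fold of the set, 51.2, and a replicate 2 fold of 349. The peak in *ppk8* reached 50.9 and 339 and lies also within the body of *DIP-alpha*, which encodes an immunoglobulin-domain surface protein of neurons. The strongest *Eip75B* peak, in intron 3 of 7, reached 34.3 in replicate 1 and the highest fold of the set in replicate 2, 423. These 4 peaks ranked in the best 67 of replicate 1 and the best 45 of replicate 2.

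The other 6 of the 10 best-ranked peaks lay in genes of varied function. *Stacl*, with 47.7 and 283, and *spin*, which encodes a transporter of late endosomes and lysosomes, with 41.7 and 182, are both on 2R. *Pdp1* had 28.5 and 214, and *CG15531* had 29.8 and 177. *Mur2B* had 34.4 and 187. *shakB* had 37.0 and 222. Each of the 10 had AAAGCT within 100 bp of the summit.

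Intronic peaks were spread over the large chromosome arms and reached far from any start site. There were 58 on 2L, 56 on 2R, 74 on 3L, 78 on 3R, 62 on X, 1 on chromosome 4 and none on Y. The distance from summit to nearest TSS ran from 203 to 254790 bp, with quartiles of 627, 1390 and 4187 bp. A total of 61 peaks (18.5%) lay within 500 bp of a TSS and 69 lay more than 5000 bp away. The farthest was in intron 18 of 21 of *Myo81F*, a myosin gene. At the 200 bp limit, the nearest peaks inside were those of *Trpm* at 203 bp and of *Imp* and *Ance-3* at 205 bp, and the nearest outside were those of *kcc* at 198 bp, *vlc* at 196 bp and *CG46385* at 195 bp. In all, 178 shared summits in gene bodies and outside exons fell within the limit. The smallest overlaps with replicate 2 were 59 bp in *Ets65A* and 60 bp in *kermit*.

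The 329 peaks lay in 244 host genes, of which 240 code for protein. Where gene bodies overlap, the peak was counted to the protein-coding gene with the shortest body. A single body held 300 of the summits, 28 lay in 2 bodies and 1 in 3. The hosts were 1.89% of the 12929 genes with an intron, and 11.7% of the 1423 genes with at least 10 kb of non-exonic body. Both shares follow from the rule that chose the peaks and are the background for the counts of gene lists below. Hosts were long, with a median of 21308 bp of non-exonic body against 358 bp over all genes with an intron. Of the hosts, 68.0% had at least 10 kb, against 11% of all genes with an intron. They also had several starts: 75.4% had TSSs more than 200 bp apart, against 22.4% of all genes with an intron and 56.4% of the long genes. Of the peaks, 215 (65.3%) lay between the outermost TSSs of their host.

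A minority of hosts also had a Lola-I peak at a promoter of their own. A shared promoter peak was present at 68 hosts (27.9%, 95% Wilson interval 22.6 to 33.8), against 5.74% of all genes with an intron. Among genes with at least 10 kb of non-exonic body the figures were 46 of 166 hosts (27.7%) against 17.7% of all such genes. A promoter peak in replicate 2, shared or not, was present at 176 hosts (72.1%) against 32.4% of all genes with an intron. This last comparison was not limited to long genes. The genes compared with include the hosts. Hosts also had TSSs more than 200 bp apart more often (75.4% against 22.4% of all genes with an intron), and no comparison was matched for this. Intronic and promoter peaks of a gene came from the same libraries, so these shares are given without a test.

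Genes of the ecdysone response held up to 7 peaks each. This gene list and those below were chosen with earlier results of these data known, so their shares are a description. Of 21 listed genes with an intron, 6 (28.6%) were hosts, beside the background of 1.89%, and together they held 21 peaks. Among the 14 that are long the count was 6 (42.9%), beside the background of 11.7%. The hosts were *Eip75B* with 7 peaks, *Eip74EF*, *Hr4* and *ftz-f1* with 4 each, and *EcR* and *Hr39* with 1 each. All but *Eip74EF* encode nuclear receptors, and *EcR* encodes the receptor that binds ecdysone. The *EcR* peak had fold enrichments of 6.62 in replicate 1 and 28.6 in replicate 2, and the *Hr39* peak had 3.43 and 12.4. Neither of these 2 had AAAGCT in its window. A peak in the body of *Hr3*, at 5.41 and 55.5, was counted to the overlapping coding gene *CG12912*.

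Of the 10 gene lists so chosen, the one with the largest share of hosts was a list of BTB transcription factors, the family to which Lola-I belongs. Of 16 listed genes with an intron, 8 (50.0%) were hosts, with 11 peaks, beside the background of 1.89%. Among the 12 long genes the count was 6 (50.0%), beside the background of 11.7%. The hosts were *ken* with 3 peaks, *chinmo*, a regulator of neuronal birth-order identity, with 2, and *fru*, *lola*, *mamo*, *psq*, *rib* and *ttk* with 1 each. The strongest was in *chinmo*, at 25.1 in replicate 1 and 137 in replicate 2, while the other *chinmo* peak had 3.63 and 14.3. The peak in *lola* itself, in intron 1 of 6 and 552 bp from a TSS, had 3.25 and 17.7. The peak in *ttk*, which encodes the repressor tramtrack, had 6.79 and 42.8. A shared promoter peak was present at 5 of the 8 hosts, *ken*, *chinmo*, *lola*, *rib* and *ttk*, beside 27.9% of all hosts.

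Lists of neuronal genes held smaller shares of hosts than these 2 lists. Of the 23 genes of synaptic vesicle release, 4 (17.4%) were hosts, each with 1 peak: *Rim*, *brp*, *Sytalpha* and *Sytbeta*, which encode active-zone scaffolds and synaptotagmins. Their replicate 1 folds were 3.90, 4.21, 3.91 and 5.99. Of 23 genes of voltage-gated and related ion channels, 3 (13%) were hosts. *Sh*, the Shaker potassium channel gene, held 3 peaks at 24.1, 6.85 and 16.4 in replicate 1 and 126, 42.6 and 92.8 in replicate 2. *SK*, a calcium-activated potassium channel gene, held 1 at 6.16 and 34.1, and *KCNQ* held the best-ranked of all. Of 47 genes of axon guidance and neural adhesion, 3 (6.38%) were hosts. Among long genes the shares were 3 of 12 (25%) for synaptic vesicle release, 3 of 17 (17.6%) for ion channels and 3 of 38 (7.89%) for axon guidance and neural adhesion, beside 11.7% of all long genes.

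By the hosts assigned, the remaining lists held 3 peaks or fewer each. Of 8 Hox genes, 2 (25%) were hosts, with 2 peaks in *Abd-B* and 1 in *Antp* at 10.6 and 90.0. A further peak in the body of *Antp*, at 10.4 and 91.7, was counted to the overlapping coding gene *CG46458*. Of 29 muscle genes, *Actn* (alpha-actinin) with 2 peaks and *Prm* (paramyosin) with 1 were hosts. Of 17 septate junction genes, *Atpalpha*, the sodium pump alpha subunit gene, held 3 peaks, the strongest at 14.3 and 110. Of 11 glycolytic genes, *PyK*, which encodes pyruvate kinase, held 1 at 9.09 and 71.3. Of 29 genes of developmental signalling, only *spi*, which encodes a ligand of the EGF receptor, was a host, at 3.39 and 40.8, and 0 of its 17 long genes were. The body of *Trl*, which encodes the GAGA factor, held 2 intronic peaks, at 3.13 and 11.1 and at 13.7 and 108, and both were counted to the overlapping coding gene *CG42507*.

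Peaks were more frequent in the first intron than in any other. By the transcript used for numbering, 140 peaks (42.6%, 95% Wilson interval 37.3 to 48.0) were in intron 1, 85 (25.8%) in intron 2, 40 (12.2%) in intron 3, 21 in intron 4, 16 in intron 5 and 27 (8.21%) in intron 6 or beyond. Intron 1 made up 32.5% of all intronic bases of all genes. It made up 21.2% of those of the host transcripts, where each base counts once and the longest genes weigh most. Averaged over the transcripts in which the peaks were numbered, the share of intron 1 was 38.5%, inside the interval of the observed share. Introns 6 and beyond made up 17.5% of the intronic bases of all genes and 30.7% of those of the host transcripts. The longest genes weigh most in the latter share too, and no average over transcripts is given for these introns.

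**Figure D2:**
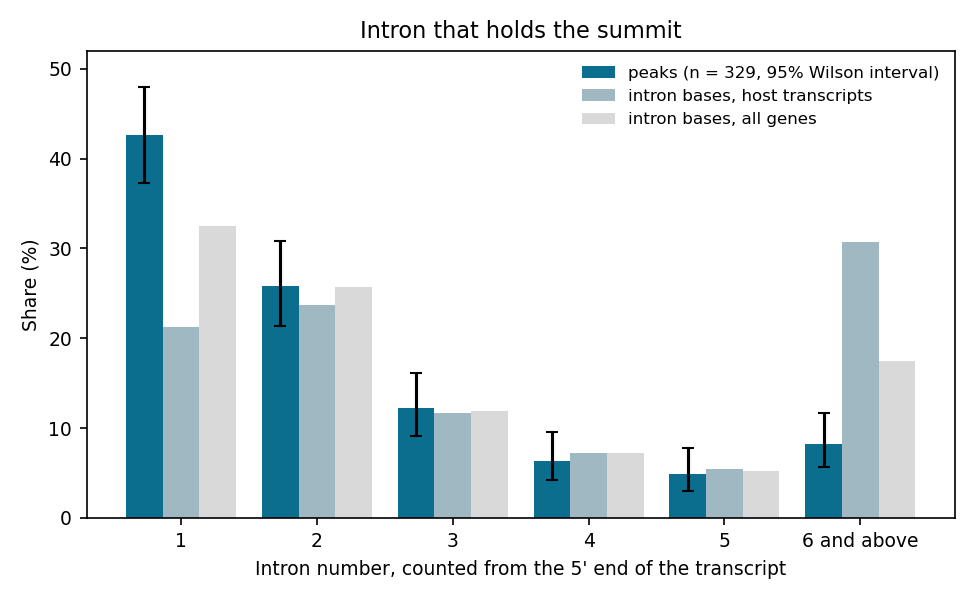
Share of peaks, of intronic bases of host transcripts and of intronic bases of all genes (y axis, percent) by intron number counted from the 5′ end (x axis). Bars for peaks carry 95% Wilson intervals, with 42.6% in intron 1 and 8.21% in intron 6 or beyond.

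The intron that held a peak was usually the longest of its transcript. This was the case for 230 peaks (69.9%), and the longest intron made up a mean of 66.1% of the intronic bases of those transcripts. Counted once per peak, the introns with a peak had a median length of 11623 bp, with quartiles of 4425 and 27535 bp. The median over all introns of canonical transcripts was 72.0 bp. Long introns offer more bases for a peak, so these 2 medians are not like for like. With each intron cut into 4 equal stretches, 124 summits lay in the stretch nearest the 5′ end, and 67, 74 and 64 in those that follow. Peaks in intron 1 had median folds of 4.43 in replicate 1 and 34.3 in replicate 2, and those in later introns had 5.63 and 42.0. Peaks in intron 1 lay nearer to a TSS, at a median of 923 bp against 2173 bp.

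Most hosts held a single peak, and a few held several. Of the 244 hosts, 189 held 1, 35 held 2, 13 held 3, 6 held 4 and 1 held 7. The 55 genes with at least 2 held 140 of the peaks (42.6%). Another peak of the set lay within 10 kb in the same gene for 104 peaks (31.6%, 95% Wilson interval 26.8 to 36.8). Neighbouring peaks of a gene formed 85 pairs, 57 of them in the same intron, with a median gap of 4690 bp between summits and a range of 309 to 57407 bp. Of the pairs, 17 were within 1 kb and 26 were more than 10 kb apart. In 10 pairs both peaks met the same replicate 2 peak.

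*Eip75B*, with 7 peaks spread over 105160 bp and 4 introns, was the gene with the most. It encodes the nuclear receptor E75, which is induced by ecdysone, and has several alternative promoters. The gene also had 3 shared promoter peaks. In replicate 1 the folds in order of coordinate were 4.61, 14.4, 34.3, 8.66, 3.02, 16.8 and 3.10. In replicate 2 they were 19.2, 113, 423, 105, 22.4, 122 and 17.4. The 3 strongest were thus the same in both replicates. The 4 neighbours of intron 3, which is 65240 bp long, included the strongest, and all 7 windows held AAAGCT. An exon and a TSS of another transcript lie between these 4 peaks.

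*Eip74EF*, *Hr4* and *ftz-f1* also combined a strong peak with weaker ones. *Eip74EF* had 1 peak at 51.2 and 349 and 3 others, all in intron 1, at 4.32, 1.90 and 5.28 in replicate 1 and 25.3, 15.7 and 32.1 in replicate 2. The peaks of *Hr4* lay in 4 different introns, at 21.8, 6.04, 2.85 and 3.91 in replicate 1 and 167, 31.7, 12.4 and 24.6 in replicate 2. The *Hr4* peak with the highest fold was the 1 without AAAGCT in its window. The 4 peaks of *ftz-f1*, which encodes a competence factor for ecdysone pulses, had 2.24, 3.91, 6.46 and 20.9 in replicate 1 and 10.7, 38.5, 43.5 and 141 in replicate 2. The 3 strongest lay in intron 2 within the body of a long noncoding RNA gene, and all 4 held AAAGCT.

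**Figure D3:**
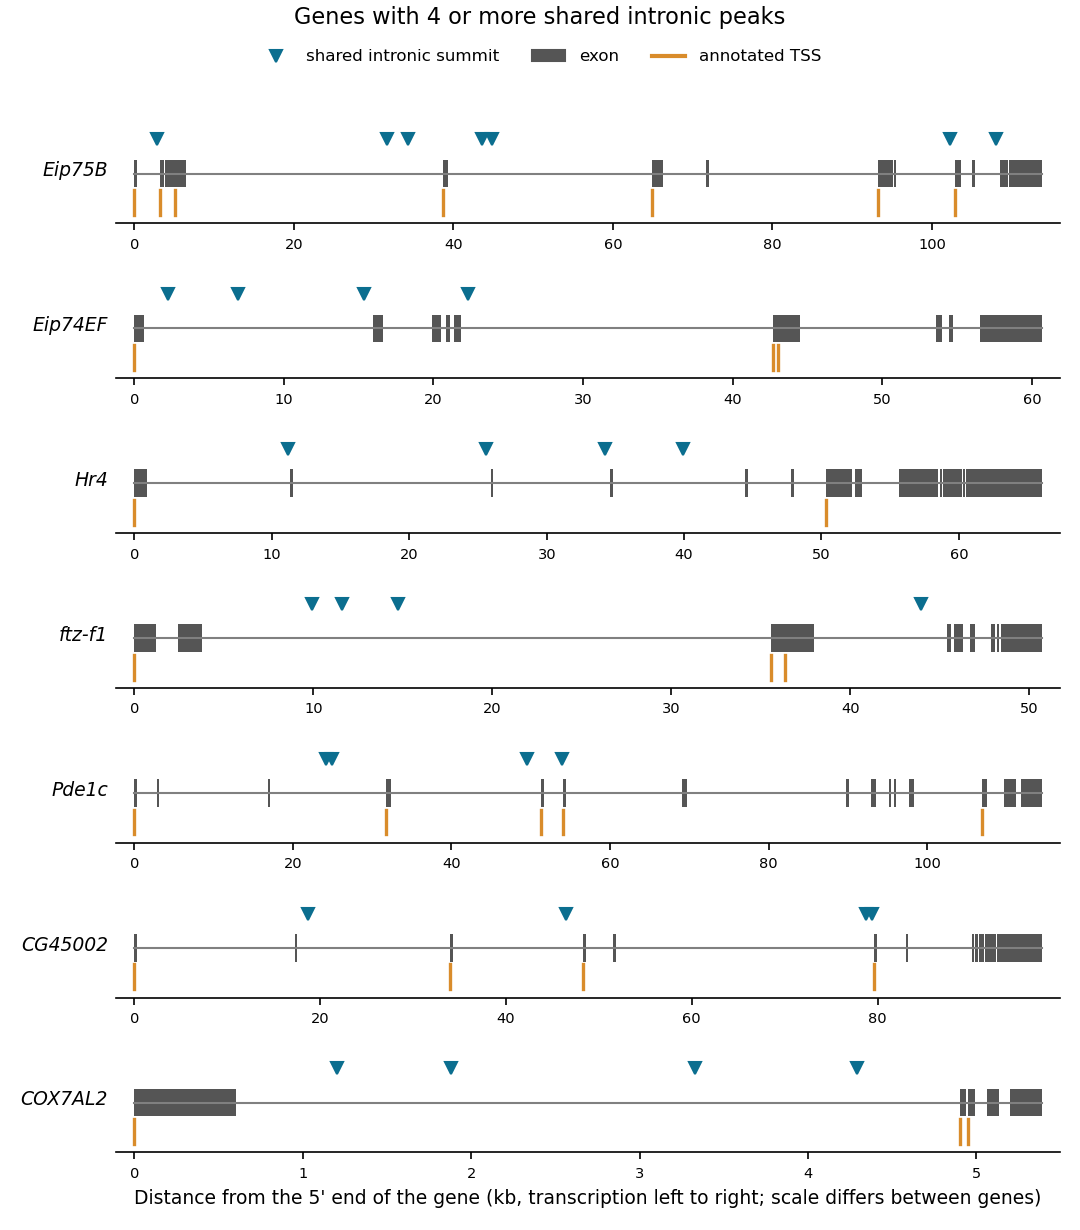
Positions of shared intronic peaks (triangles) along the 7 genes with at least 4, as distance in kb from the 5′ end of the gene (x axis, a scale of its own for each gene), with exons as boxes and annotated TSSs as ticks. The 7 peaks of *Eip75B* span 105160 bp, whereas the 4 of *COX7AL2* lie within 3086 bp.

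Besides the 4 peaks in intron 3 of *Eip75B*, clusters of 4 peaks in a single intron of the numbered transcript occurred in *Pde1c*, *CG45002* and *COX7AL2*. In *Eip75B*, *Pde1c* and *CG45002*, exons and TSSs of other transcripts lie between these peaks, as the gene maps show. In *Pde1c*, a cyclic nucleotide phosphodiesterase gene, the peaks spanned 29678 bp with folds of 2.71 to 15.0 in replicate 1 and 15.1 to 114 in replicate 2. In *CG45002* they spanned 60699 bp with 3.86 to 7.14 and 22.9 to 56.4. Each of these 8 windows held AAAGCT. In *COX7AL2*, named for a subunit of cytochrome c oxidase, the 4 peaks spanned only 3086 bp, with 3.05 to 7.42 and 18.8 to 31.9, and 2 of them met the same replicate 2 peak. None of the 4 held AAAGCT or GAGAG. In *dnc* the 3 peaks had 31.8, 30.2 and 3.63 in replicate 1 and 231, 254 and 32.6 in replicate 2, and in *prage* 28.8, 28.4 and 9.32 and 243, 205 and 72.4.

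The letters AAAGCT were present within 100 bp of 247 of the 329 summits (75.1%, 95% Wilson interval 70.1 to 79.4). The share was 14.6% in windows of the same length 1000 bp to either side and 12.4% over the genome cut into windows of that length. Both strands were searched, and AAAGCT overlaps the palindrome AAGCTT, so the 2 are not separate evidence. The motif was chosen with earlier results of these peaks known. At shared promoter peaks the share was 75.4%, with an odds ratio of 0.982 (95% interval 0.723 to 1.34) and an adjusted p of 0.94 by a two-sided Fisher's exact test with Benjamini-Hochberg adjustment over 15 tests. At shared intergenic peaks it was 77.8%, with an odds ratio of 0.859 (0.583 to 1.26, adjusted p = 0.68, Fisher's exact test). No difference was detected, and these intervals show the sizes that could have been missed. Intronic peaks of replicate 2 alone had it in 22.9%, and there the odds ratio was 10.1 (7.71 to 13.4) with an adjusted p of 8.2e-76 by Fisher's exact test. The rule that chose the peaks also split these 2 classes, by presence in replicate 1. The peaks of replicate 2 alone were far weaker, with a median replicate 2 fold of 4.36 against 37.3. The part of signal strength in this difference was not tested, so this p-value only describes the split.

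**Figure D4:**
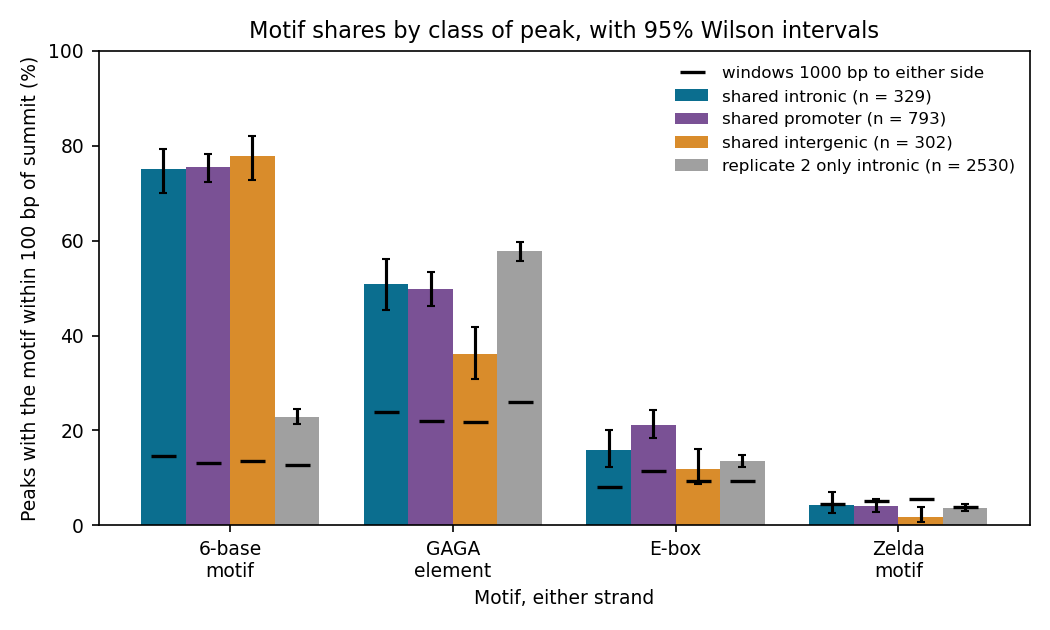
Share of peaks (y axis, percent) with each motif within 100 bp of the summit, by class of peak, with 95% Wilson intervals. The 6-base motif stands at 75.1% in shared intronic, 75.4% in shared promoter and 77.8% in shared intergenic peaks, and at 22.9% in intronic peaks of replicate 2 alone.

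AAGCTT was present at 47.4% of shared intronic peaks against 10.4% at intronic peaks of replicate 2 alone (odds ratio 7.81, 6.02 to 10.1, adjusted p = 4e-53, Fisher's exact test). These 2 classes are the ones split by the rule. Shared promoter peaks had AAGCTT in 41.1% (odds ratio 1.29, adjusted p = 0.14, Fisher's exact test). Shared intergenic peaks had it in 49.7% (odds ratio 0.914, adjusted p = 0.79, Fisher's exact test). The genome share of AAGCTT was 5.47%. GAGAG, the letters recognised by the GAGA factor, was present in 50.8%, against 23.9% in the flanks and 21.6% of genome windows. The share was higher than the 36.1% of shared intergenic peaks, with an odds ratio of 1.83 (1.31 to 2.54, adjusted p = 0.0011, Fisher's exact test). Against the 49.8% of shared promoter peaks and the 57.7% of intronic peaks of replicate 2 alone it passed no threshold, with odds ratios of 1.04 (adjusted p = 0.92) and 0.754 (0.595 to 0.956, adjusted p = 0.067) by Fisher's exact test. The median GC content of the windows was 47.3% at shared intronic and 43.5% at shared intergenic peaks. The 2 classes were not matched for GC content or for distance to a TSS. The part of either in the GAGAG difference between them was not tested. CAGCTG, an E-box, was present in 15.8% and CAGGTA, the letters bound by Zelda, in 4.26%, and neither passed the threshold in any of the 3 comparisons. In all, 3 of 15 tests had an adjusted p under 0.05. Peaks of 1 gene or of 1 replicate 2 peak are not independent, so these p-values are too small.

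Within the intronic peaks the share with the motif was higher at better ranks. With the peaks in 4 groups by replicate 1 rank, AAAGCT was present in 95.1% of the best-ranked group, then 84.1%, 69.5% and 51.8%. The median folds of these groups were 16.3, 6.21, 4.02 and 2.82 in replicate 1 and 135, 44.0, 26.7 and 17.4 in replicate 2. GAGAG ran the other way, with 39.0%, 50.0%, 51.2% and 62.7%. Both motifs were present in 127 windows, AAAGCT without GAGAG in 120, GAGAG without AAAGCT in 40 and neither in 42. By distance to the nearest TSS, GAGAG was present in 70.5% of the 61 peaks at up to 500 bp and in 45.3% to 47.8% of the peaks farther away, while AAAGCT ranged from 71.8% to 82.0%. Peaks alone in their host had AAAGCT in 150 of 189 windows (79.4%), and peaks of hosts with several had it in 97 of 140 (69.3%).

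Where AAAGCT was present, the match nearest to the summit had its centre within 25 bp in 146 of the 247 peaks (59.1%). The median distance was 18.5 bp. A window with several matches is more likely to hold a near one, and no expected share was computed for comparison. A single match was present in 71 windows, 2 in 73, 3 in 60 and at least 4 in 43. On the host's strand AAAGCT was read by the nearest match in 114 peaks and its reverse complement in 133, a share of 46.2% (95% Wilson interval 40.0 to 52.4) on the host's strand. The base that followed the nearest match on its 3′ side was C in 40.9% and T in 40.1%, and the base before it was A in 53.8%.

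**Figure D5:**
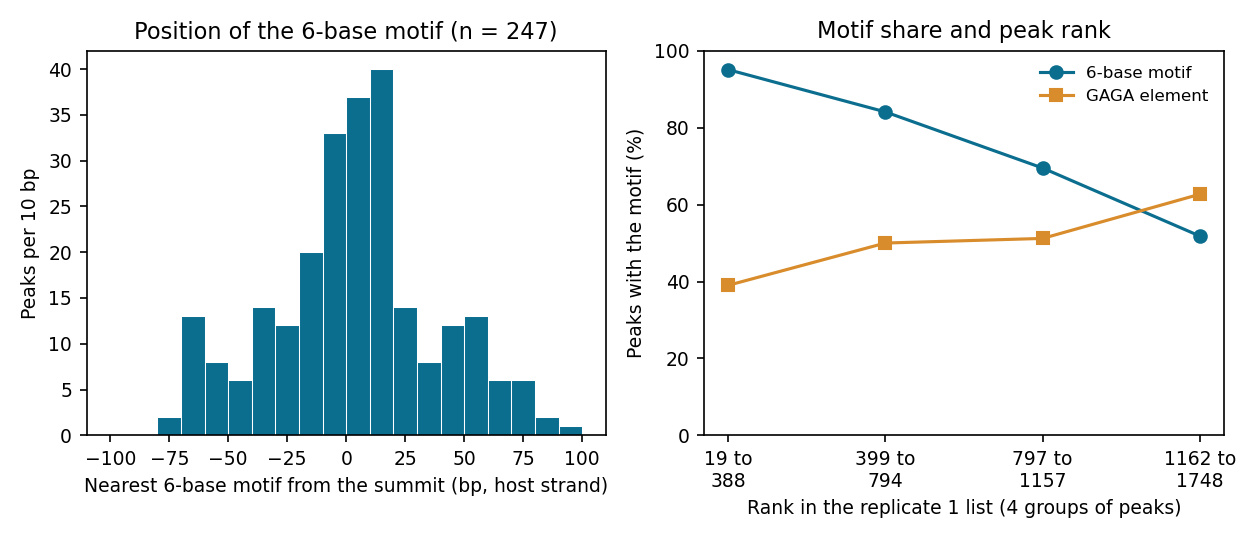
Distance of the nearest 6-base match from the replicate 1 summit (x axis, bp, along the host's strand) against the number of shared intronic peaks (y axis) for the 247 peaks with a match (left), and share of peaks with the 6-base motif and with the GAGA element (y axis, percent) in 4 groups by replicate 1 rank (right). Of the matches, 146 lie within 25 bp of the summit, and the share with the 6-base motif is 95.1% in the best-ranked group and 51.8% in the last.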

How the data were processed

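ChIP-seq peaks of 2 wild-type Lola-I samples at 14 to 17 h, 1 list per replicate, were used as deposited. Per the submitters' processing notes, CASAVA 1.8.2 and Bowtie 1.0.0 and the build dm6 were used. The peak caller, its control and its filters are not given in the sources used here. The deposited score, the deposited fold enrichment (a ratio), the deposited −log10 p-value and the deposited −log10 q-value are the authors' values for each peak within its own library. Depth is unknown, and nothing says whether the replicates were separate embryo collections. Intervals cover counting over peaks only.

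Peaks were placed by summit with Ensembl release 115 (BDGP 6.54), without transposable elements, on the 7 arms. Sequence came from RefSeq Release 6. Each peak was counted to 1 host, protein-coding first and then the shortest body. Introns were numbered on the Ensembl canonical transcript where it held the summit in an intron, otherwise on the longest transcript that did. Motif shares were compared by two-sided Fisher's exact tests with Benjamini-Hochberg adjustment over 15 tests, with SciPy 1.17.1 and NumPy 2.4.6 under Python 3.11.15, and figures were drawn with matplotlib 3.10.9. The placing of positions was checked at annotated sites against a direct scan, and the overlap and motif searches on constructed peaks and sequences. Intron numbering, host choice, clustering and the Fisher's exact tests had no such check.

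Peaks were ranked within each list by the deposited −log10 p-value. Named were the 10 peaks with the lowest sum of ranks over both lists and the 10 genes with the most peaks. Also named were list genes with a peak, *lola*, *Trl* and the peaks nearest the TSS limit. The peaks, lists and motifs were chosen with earlier results of these data known. *Myo81F*, *Ets65A*, *kermit*, *rdx*, *AGO1*, *CG46458*, *CG12912*, *Hr3* and the 4 unmatched peaks were named after their values were seen. Alternatives were other overlap rules, TSS distances, rank limits, summits, annotations, windows, host and intron choices, and each list alone.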

Additional observations from a re-analysis of the deposited data

Results flagged for a closer look

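Peaks outside the 7 chromosome arms were used in no comparison. Each replicate list held 9 of them, with a highest fold enrichment of 3.97 in replicate 1 and 27.3 in replicate 2. Of the 9 in replicate 1, 3 were overlapped in replicate 2. They were singled out because they carry signal in data outside the intronic peaks, and the WCE samples of the series were not used here.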

How the results depend on the processing

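Of 88 alternatives over 10 results, 57 kept the direction and stayed near the value reported. The number of peaks (329) was 173 with a reciprocal overlap of at least 50% and 197 at more than 1000 bp from a TSS. It was 176 with the better-ranked 50% of each list, and 333 to 2839 without either replicate. The number of hosts (244) was 145, 148 and 146 in the same order, and 247 to 1342 without either replicate. Genes with at least 2 peaks (55) were 22, 32 and 22, and 56 to 550. The share in intron 1 (42.6%) was 36.4% with the reciprocal overlap, 34.0% beyond 1000 bp, 54.4% with the lowest intron number over all transcripts, and 42.3% to 53.0% without either replicate. The share with a neighbour within 10 kb (31.6%) was 15.0% with the reciprocal overlap and 25.5% with summits within 200 bp. It was 18.2% with the better-ranked 50%, 24.9% at 5 kb, and 31.2% to 64.4% without either replicate. With 1 peak per replicate 2 peak, added after seeing the data, it was 27.9%. The odds ratio of AAAGCT against promoter peaks (0.982) passed 1 with the reciprocal overlap (1.39), summits within 200 bp (1.07), coding genes only (1.03), and windows of 50 bp (1.01) and 200 bp (1.10) to either side of the summit, and was 1.00 to 1.10 without either replicate, never past the threshold. Against intergenic peaks (0.859) it was 1.05 by the replicate 2 summit and 0.753 to 0.956 without either replicate, and the lower end, from replicate 2 alone, had p = 3.4e-05 by Fisher's exact test. GAGAG against promoter peaks (1.04) was 0.979 with 200 bp to either side. The cause was not tested, except that fewer peaks enter under stricter rules. No paired analysis was possible because only 1 group had peak lists. Read depth is unknown, so peaks missing from replicate 1 are not shown to be unbound.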
